A study of Sus scrofa with 15 samples.

Results

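The cytosolic ribosomal proteins are the protein part of the ribosomes that translate mRNA in the cytoplasm. Their genes were taken here by symbol: every pig gene whose symbol starts with RPL (large subunit) or RPS (small subunit) followed by a digit, together with RPSA, RPLP0, RPLP1 and RPLP2, and without the kinases named RPS6K. Of the 84 symbols of this kind in the pig annotation, 37 could be assigned to a probe of the array, 21 of the large and 16 of the small subunit, among 3020 genes measured by symbol. The other 47, with RPLP1, RPS6, RPL4 and RPL8 among them, were not matched to a probe and were not analysed here. Each gene is represented by its probe of highest mean signal. Neither the symbol rule nor the choice of probe used a difference between groups, but the set was chosen with earlier results of these data known.

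Kidneys came from female Yorkshire pigs aged 20 weeks. All pigs, controls included, had lost the left kidney 1 week before the experiment, then had 90 minutes of warm ischemia of the remaining right kidney and gave tissue 72 hours after the operation. The control group (n = 5) had no ischemic preconditioning (IPC). Remote IPC closed the external iliac artery of the right side in 2 cycles of 10 minutes each. It was done just before renal ischemia in the rIPCe group (early, n = 5) or 24 hours before it in the rIPCl group (late, n = 5). No pig without renal ischemia was among the samples analysed here, so each comparison is between injured kidneys. RNA of each pig was hybridized to 1 single-color Agilent porcine array, and values are log2 signals after quantile normalization over the 15 arrays.

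A ribosome consists of a small subunit, which reads the mRNA, and a large subunit, which joins the amino acids. Each ribosomal protein is normally needed in a single copy per ribosome, apart from the P stalk proteins, and most of the mRNAs start with a terminal oligopyrimidine (TOP) motif through which their translation follows mTOR activity. The mRNA levels of these genes are usually high and similar among cells, and several of them, RPL13A included, serve as reference genes in quantitative PCR. Some ribosomal proteins also have roles outside the ribosome, such as the binding of MDM2 by RPL5 and RPL11.

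Each of the 37 genes exceeded background clearly on every one of the 15 arrays, as did all 187 probes assigned to them. No spot was saturated. The spread among pigs of one group was narrow, with a median SD of 0.14 on the log2 scale compared to 0.36 over all 43603 probes. It was lowest for RPS20, at 0.08, and highest for RPL13A, at 0.4. The 95% confidence interval of a difference between groups was accordingly 0.45 wide at the median over the ribosomal protein genes and 0.96 over all probes. The percentage of spots well above background lay between 62.2% and 69.5% for control arrays, 67.4% and 73.9% for rIPCe arrays, and 71.8% and 74.2% for rIPCl arrays. Slide and group largely coincided: control 1 to 4 were alone on slide 1, control 5 was on slide 2 with rIPCe 1 to 3, rIPCe 4 and 5 were on slide 3 with rIPCl 1, and rIPCl 2 to 5 were alone on slide 4.

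When each gene was centered on its mean over the arrays, the median of the 37 genes was 0.06 on control 1, -0.16 on control 2, -0.14 on control 3, -0.08 on control 4 and -0.13 on control 5. It was -0.06, 0.23, 0.04, -0.05 and -0.02 on rIPCe arrays 1 to 5, and 0.01, 0.08, -0.02, 0.18 and 0.03 on rIPCl arrays 1 to 5. The highest arrays were thus rIPCe 2, where 35 of the 37 genes lay above their own mean, and rIPCl 4, where 34 did. Control 1 stood apart from the other control arrays, with 24 genes above their mean, whereas the other 4 control arrays had 2 to 10. The groups overlapped in this measure. The mean of the array medians was -0.09 ± 0.09 (SD, n = 5) in the control group, 0.03 ± 0.12 in rIPCe and 0.06 ± 0.08 in rIPCl.

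**Figure D1:**
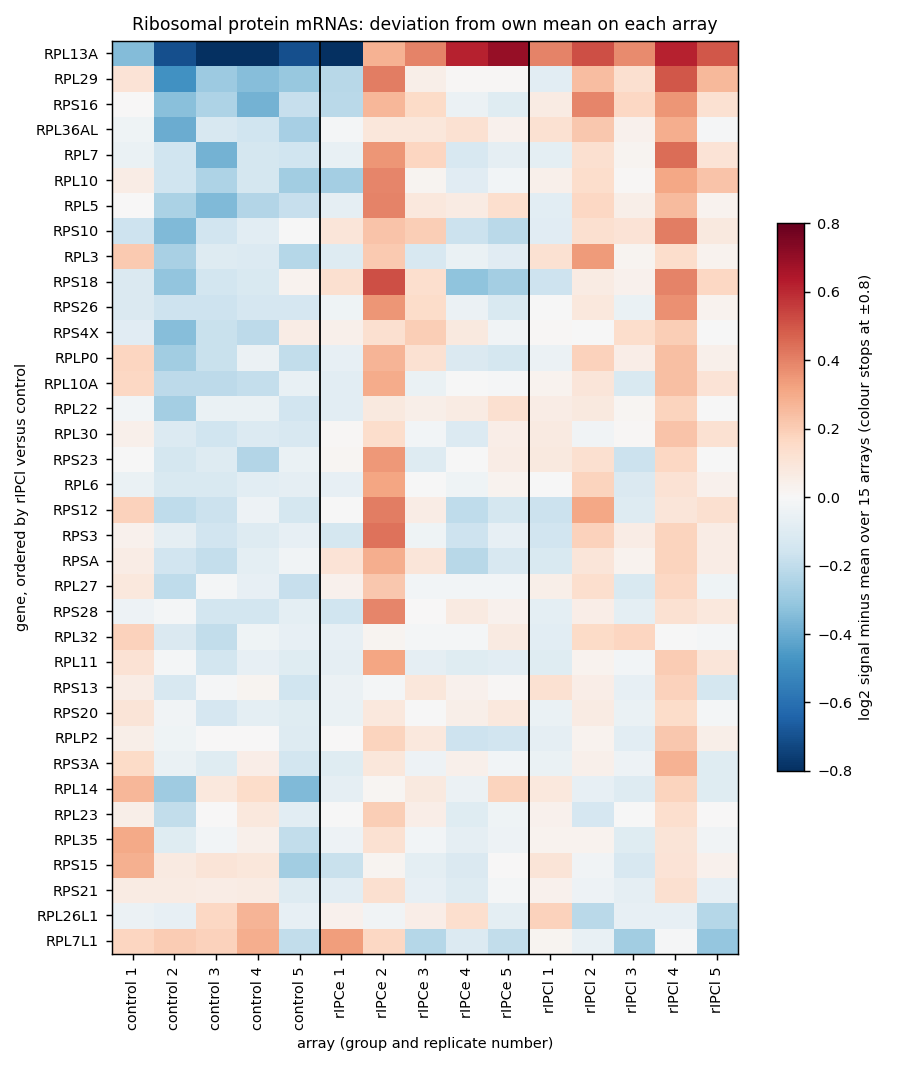
Log2 signal of 36 of the 37 ribosomal protein genes (rows, ordered by the difference between rIPCl and control) on each of the 15 arrays (columns) after subtraction of the gene's mean over all arrays, with red for higher and blue for lower and the color scale ending at ±0.8. Most genes are pale blue in control arrays 2 to 5 and red in rIPCe 2 and rIPCl 4, and RPL13A in the top row is dark blue in the control arrays and in rIPCe 1.

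Late remote IPC was compared with ischemia alone first. In rIPCl, 32 of the 37 ribosomal protein genes had a higher mean than in the control group, while 45.9% of all probes did. The differences were small. Their median was 0.13 on the log2 scale, with a range from -0.25 to 1.17, against a median of -0.03 over all probes and -0.02 over all genes with a symbol. Two-sided limma tests adjusted over all probes (Benjamini-Hochberg) called RPL13A and RPS16, both higher, which are 2 of 37 genes or 5.41%. Over all probes the same criterion was met by 6.27% in either direction and by 2.69% upward. The share of called ribosomal protein genes thus lay below the first value and above the second. It rests on 2 genes, and its difference from either value was not tested. At an unadjusted limma p under 0.05, 9 genes (24.3%) were higher and 0 were lower, against 12.8% higher and 14% lower over all probes. Only RPL13A had a fold change of at least 2 with an unadjusted p under 0.05, a criterion met by 5.83% of all probes. The large subunit had a median of 0.17 and 6 of its 21 genes at an unadjusted p under 0.05, and the small subunit had a median of 0.13 and 3 of its 16. For 27 of the 37 genes the 95% interval lay entirely within ±0.5. Of all 43603 probes, 25913 were well above background on every array and 6929 on none. The shares and medians over all probes, here and below, were thus not matched to the signal of the ribosomal protein genes.

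RPL13A, a large subunit protein that is also known as part of the complex that silences inflammatory mRNAs after interferon-γ, differed most. Its log2 signals in the control group were 15.09, 14.73, 14.59, 14.56 and 14.73. In rIPCl they were 15.83, 15.95, 15.81, 16.05 and 15.93. Every rIPCl array lay above every control array, and the rIPCl arrays were close to each other. The mean rose from 14.74 ± 0.21 (SD, n = 5) to 15.91 ± 0.1 (SD, n = 5), which is 2.25-fold (log2 fold change 1.17, SE 0.24, 95% confidence interval 0.65 to 1.69, limma adjusted p = 0.0244). The exact permutation test, two-sided over 252 assignments, gave p = 0.00794, the smallest it can give with 5 arrays against 5. The second probe of the gene gave a log2 fold change of 1.21. The adjusted p depended on single arrays, since in limma it was 0.0621 without control 2, 0.0555 without control 3, and 0.0566, 0.0624 and 0.0566 without rIPCl 3, 4 and 5, with log2 fold changes of 1.13 to 1.26 in all such fits. With slide as a block the difference was 0.36 on the log2 scale, with a limma adjusted p of 0.871, and with slide as a random block it was 1.06 (limma adjusted p = 0.227). No slide held both groups, so this value rests on rIPCe arrays that shared a slide with a control or an rIPCl array.

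RPS16, a small subunit protein whose tail reaches the tRNA in the P site, also rose. Its log2 signals were 14.98, 14.64, 14.73, 14.6 and 14.79 in the control group and 15.04, 15.37, 15.14, 15.33 and 15.1 in rIPCl. The groups did not overlap, although control 1 and rIPCl 1 were nearly equal. The change was 1.37-fold (log2 fold change 0.45, SE 0.12, 95% confidence interval 0.2 to 0.7, limma adjusted p = 0.0401). The exact permutation p was 0.00794. Its other probe rose by 0.63 (limma adjusted p = 0.0224). The call was lost without control 2, 3 or 4 or without rIPCl 2, 3, 4 or 5, where limma adjusted p values were 0.0708 to 0.0944 and log2 fold changes 0.41 to 0.47. It was also lost under other scalings, with a log2 fold change of 0.35 after subtraction of the 75th percentile (limma adjusted p = 0.0809) and 0.22 without normalization (limma adjusted p = 0.577), and with slide as a fixed block (0.39, limma adjusted p = 0.648) or a random block (0.44, limma adjusted p = 0.25).

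Groups that did not overlap, with every rIPCl array above every control array, were seen for 5 genes (13.5%), against 2.72% of all probes. The reverse was seen for 0 genes, against 6.76% of all probes. Besides RPL13A and RPS16 these were RPL36AL, RPL22 and RPS26. RPL36AL, a close paralog of RPL36A at the exit (E) site of the large subunit, had control values of 16.02, 15.66, 15.93, 15.9 and 15.79 and rIPCl values of 16.18, 16.27, 16.09, 16.35 and 16.05. The lowest rIPCl array was only just above the highest control array. The log2 fold change was 0.33 (SE 0.09) and the limma adjusted p of 0.0502 missed the threshold. RPL22 and RPS26 differed by 0.17 (SE 0.08) and 0.22 (SE 0.11), with limma adjusted p values of 0.19 and 0.203.

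The remaining genes at an unadjusted p under 0.05 were RPL29, RPL7, RPL10, RPL5, RPS10 and RPS4X. RPL29, which is also known as a heparin-binding protein of the cell surface, had values of 16.99, 16.4, 16.59, 16.54 and 16.58 in the control group and 16.8, 17.13, 17.01, 17.38 and 17.14 in rIPCl. Control 1 lay above the lowest rIPCl array and the other control arrays lay below all of them. Its log2 fold change was 0.47 (SE 0.14, limma adjusted p = 0.0622), and without control 1 it was 0.56 and was called (limma adjusted p = 0.0302). RPL7, RPL10 and RPS10 differed by 0.31, 0.3 and 0.28, with limma adjusted p values from 0.132 to 0.159. RPL10 is one of the last proteins to join the large subunit, and RPS10 lies near the mRNA entry of the small subunit.

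Among the genes with known roles outside translation, RPL5 stood at 17.43, 17.17, 17.07, 17.19 and 17.24 in the control group and at 17.34, 17.59, 17.47, 17.68 and 17.45 in rIPCl. Only control 1 overlapped with rIPCl (log2 fold change 0.29, SE 0.11, limma adjusted p = 0.112). RPL11, its partner in the particle with 5S rRNA, differed by 0.08 (95% confidence interval -0.14 to 0.3). RPSA, the laminin receptor precursor, differed by 0.13 (95% confidence interval -0.1 to 0.36). The stalk proteins RPLP0 and RPLP2, where elongation factors bind, differed by 0.2 (95% confidence interval -0.04 to 0.44) and 0.05 (95% confidence interval -0.16 to 0.25). These values are those of the brightest probe, and other probes of some of these genes differed more. The 3 probes of RPL11 lay at 0.04 to 0.4, with 1 at an unadjusted limma p under 0.05. The 13 of RPLP0 lay at 0.04 to 0.36 with 3 at that threshold, and the 6 of RPSA at 0.05 to 0.24 with 0.

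The genes with a lower mean in rIPCl were RPL7L1, RPL26L1, RPS21, RPS15 and RPL35, and no one of them passed an unadjusted p under 0.05 at its brightest probe. The values for RPL7L1, a nucleolar relative of RPL7 that takes part in processing of pre-rRNA, were 14.6, 14.63, 14.61, 14.72 and 14.23 in the control group and 14.45, 14.37, 14.15, 14.42 and 14.12 in rIPCl. Control 5 was as low as the rIPCl arrays, and the difference was -0.25 (SE 0.13, limma adjusted p = 0.239). RPL26L1, the paralog of RPL26, differed by -0.13 (SE 0.1, limma adjusted p = 0.444). RPS21, RPS15 and RPL35 differed by -0.04, -0.03 and 0. With slide as a block, the differences of all 5 genes turned, to 0.46 for RPL7L1, 0.24 for RPL26L1, 0.19 for RPS21, 0.36 for RPS15 and 0.3 for RPL35, and RPS21 was also higher, at 0.03, when arrays were scaled by their 75th percentile.

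**Figure D2:**
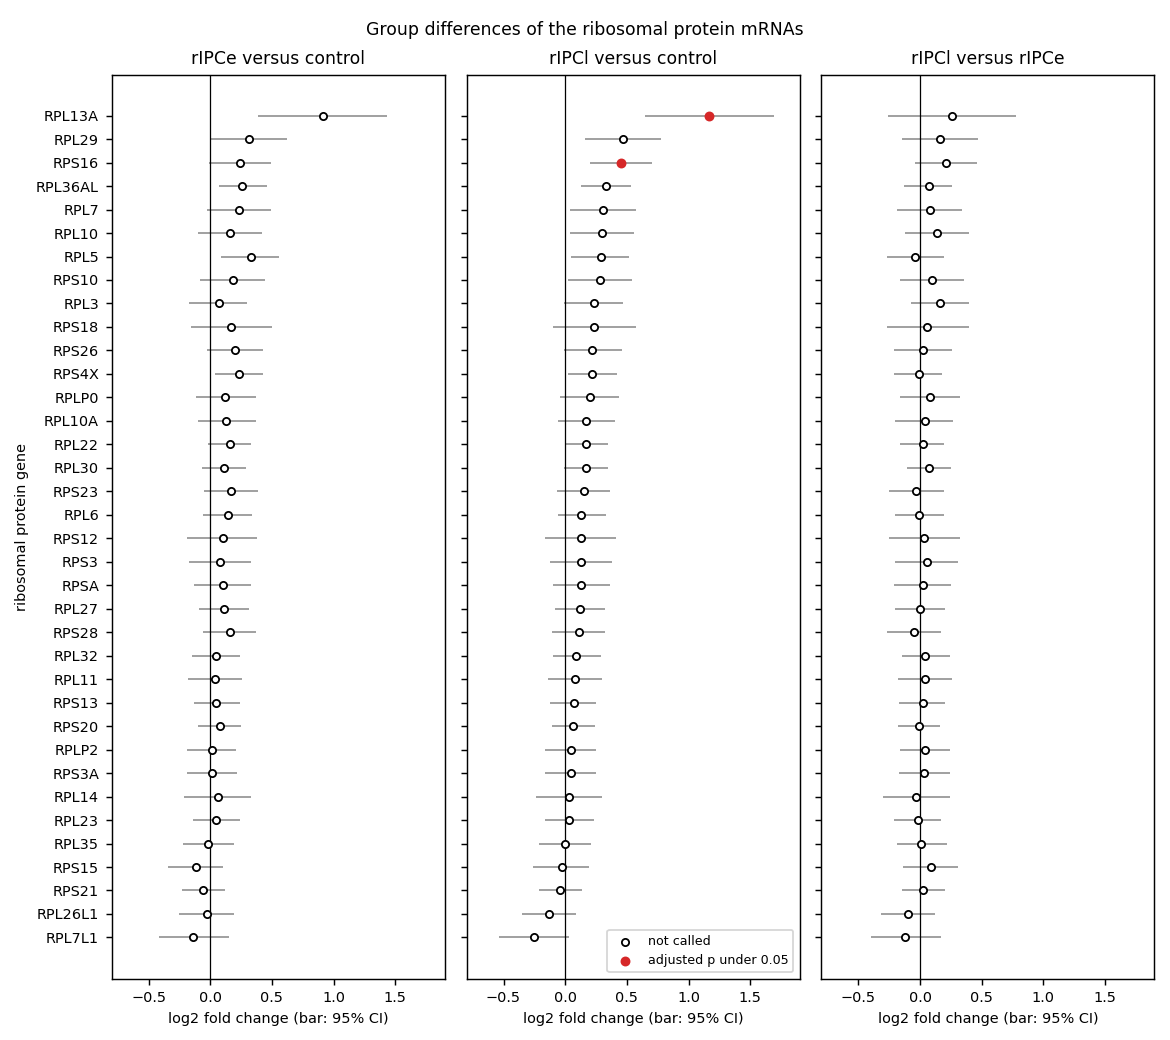
Log2 fold change (points) with its 95% confidence interval (bars) for 36 of the 37 ribosomal protein genes in the 3 comparisons, from limma on 5 arrays per group, with filled red points for an adjusted p under 0.05. RPL13A and RPS16 in rIPCl versus control are the 2 filled points, and the intervals drawn for rIPCl versus rIPCe all cross 0.

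The scaling of the arrays moved the level of the whole set. Without any normalization between arrays the median of all probes in rIPCl versus control was -0.24, the median of the ribosomal protein genes was 0.04 and 22 of 37 were higher. After subtraction of the 75th percentile the 2 medians were -0.11 and 0.17, with 35 of 37 higher. The set thus lay above the median of all probes under each scaling, by an amount that was not tested. One array was also important, because 28 of 37 genes were higher without rIPCl 4, and 4 instead of 9 then had an unadjusted p under 0.05. Without control 1, 13 genes did, and without control 3, 4 did. In whole tissue, fewer cells of a type and less RNA per cell cannot be told apart.

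Early remote IPC was compared with the same control arrays. In rIPCe, 32 of the 37 genes had a higher mean than in the control group (48.7% of all probes did), with a median of 0.11 against -0.01 over all probes and a range from -0.14 to 0.91. The limma test called 0 genes after adjustment (smallest adjusted p = 0.188), as it called 0.00229% of all probes. At an unadjusted p under 0.05, 5 genes (13.5%) were higher and 0 were lower, against 5.45% and 8.65% of all probes. The 5 genes were RPL13A, RPL5, RPL36AL, RPS4X and RPL29. A fold change of at least 2 with an unadjusted p under 0.05 was reached by 0 genes and by 2.18% of all probes. The 95% interval lay within ±0.5 for 33 genes. Because both comparisons use the same control arrays, their values are not independent of each other. One array carried much of the difference, as the median was 0.06 and 26 of 37 genes were higher without rIPCe 2.

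RPL13A on the rIPCe arrays was 14.53, 15.71, 15.83, 16.05 and 16.13. The 4 arrays from rIPCe 2 to rIPCe 5 lay at the level of the rIPCl group, and rIPCe 1 lay below all control arrays. The mean of 15.65 ± 0.65 (SD, n = 5) gave a log2 fold change of 0.91 (SE 0.24, 95% confidence interval 0.39 to 1.43) with a limma adjusted p of 0.188 and an exact permutation p of 0.0476. Without rIPCe 1 it was 1.19 and was called (limma adjusted p = 0.00142). The second probe gave 0.93. On slide 2, the 3 rIPCe arrays averaged 0.62 above the control array. RPL13A was the single gene of the set for which rIPCe 1 lay far from the other rIPCe arrays by Dixon's test.

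RPL36AL was the single gene whose rIPCe arrays all lay above all control arrays, with values of 16.04, 16.15, 16.15, 16.18 and 16.09 (0.569% of all probes did so). The reverse was seen for 0 genes, against 2.73% of all probes. Its log2 fold change was 0.26 (SE 0.09, limma adjusted p = 0.241, exact permutation p = 0.00794). RPL5 had rIPCe values of 17.35, 17.82, 17.51, 17.49 and 17.56, of which 4 exceeded all control arrays (log2 fold change 0.33, SE 0.11, limma adjusted p = 0.224). RPS4X, the X-linked member of a gene pair, had values of 16.29, 16.04, 16.2, 16.17 and 16.44 in the control group, 16.42, 16.51, 16.58, 16.46 and 16.35 in rIPCe and 16.39, 16.38, 16.52, 16.58 and 16.38 in rIPCl. It differed from the control group by 0.23 in rIPCe and by 0.22 in rIPCl (SE 0.09 in both), with control 5 overlapping both groups. RPL29 differed by 0.31 (SE 0.14, limma adjusted p = 0.349). Lower means were seen for RPL7L1 (-0.14), RPS15 (-0.12), RPS21 (-0.06), RPL26L1 (-0.03) and RPL35 (-0.02).

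**Figure D3:**
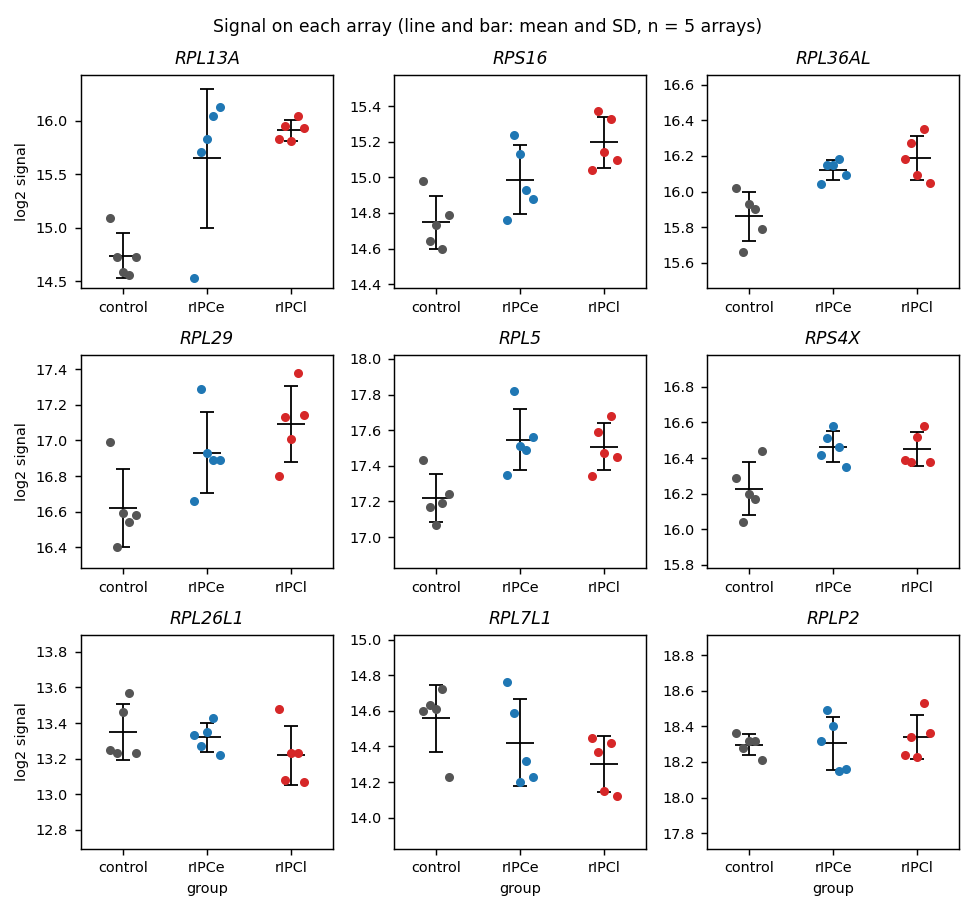
Log2 signal on each array (points) for 9 ribosomal protein genes in the control, rIPCe and rIPCl groups, with the mean and SD of 5 arrays as line and bar. The axis spans 2 log2 units for RPL13A and 1.2 for the others, and RPL13A in rIPCe has 4 arrays at the level of rIPCl and 1 at the level of the control group.

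The 2 preconditioned groups did not differ detectably in these genes. In rIPCl compared to rIPCe, 27 genes were higher and 10 lower (47.5% of all probes were higher), with a median of 0.03 against -0.01 over all probes. After adjustment limma called 0 of 37 genes and 0% of all probes. At an unadjusted p under 0.05 it called 0 genes, against 3.85% of all probes (2.26% higher and 1.58% lower). The criterion of fold 2 was met by 0 genes and by 0.525% of all probes, and the methods' t-test called 0 after adjustment. The differences ranged from -0.12 (RPL7L1) to 0.26 (RPL13A). The smallest p belonged to RPS16, which differed by 0.21 (SE 0.12, 95% confidence interval -0.04 to 0.46). It was followed by RPL3, a protein of the peptidyl transferase center, at 0.16, RPL10 at 0.14 and RPL29 at 0.16, and on the lower side RPL26L1 was at -0.1. For 36 of 37 genes the 95% interval lay within ±0.5, and for RPL13A it reached from -0.26 to 0.78. Without rIPCe 1 the difference of RPL13A was -0.02, and on slide 3, the slide with both groups, it was -0.26. Without rIPCl 4, the median over the genes was -0.01.

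Slides allowed 2 comparisons within a slide. On slide 2, the 3 rIPCe arrays exceeded the single control array in 37 of 37 genes, with a median difference of 0.2 against -0.01 over all probes. All 37 differences share that control array, which was among the lowest for this set. On slide 3, the single rIPCl array exceeded the 2 rIPCe arrays in 26 genes, with a median of 0.06 against 0.01 over all probes. With slide as a block the median in rIPCl versus control was 0.28, 35 of 37 genes were higher and 0 were called. The part of slide in the differences was not tested beyond these values.

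Most of the genes were measured by several probes, which gave further values for the same RNA. Of the 187 probes, 176 (94.1%) were higher in rIPCl than in the control group, with a median of 0.21. An unadjusted limma p under 0.05 was reached by 71 probes upward and 3 downward, against 12.8% and 14% of all probes. After adjustment 15 probes (8.02%) of 6 genes were called, all upward, against 2.69% of all probes called upward. Probes of a gene share the RNA and are no replicates. Among the 31 genes with more than 1 probe, all probes were higher in 27, all were lower in 2 and the signs differed in RPS15 and RPS21. For 21 of these genes the brightest probe, which represents the gene in the results above, had a smaller log2 fold change than the median of the gene's other probes, and for 10 a larger one.

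RPS4X had 14 probes with log2 fold changes of 0.22 to 0.64 in rIPCl, of which 14 had an unadjusted p under 0.05 and 6 were called after adjustment in limma. The brightest was the lowest of them. RPL5 had 18 probes, all higher by 0.17 to 0.44, of which 14 had an unadjusted p under 0.05 and 0 were called. RPL10 had 5 probes at 0.3 to 0.48 with 2 called, RPL29 had 3 at 0.47 to 0.54 with 2 called, and RPL6 had 13 at 0.13 to 0.42 with 1 called. On the other side, the 4 probes of RPL26L1 were all lower, at -0.42 to -0.13, and the 3 of RPL7L1 were lower at -0.37 to -0.17. An unadjusted limma p under 0.05 was reached by 2 of these RPL26L1 probes and 1 of these RPL7L1 probes, though by neither brightest probe, and 0 were called. When the median of a gene's probes took the place of the brightest, 4 genes were called in rIPCl. In rIPCe, 165 of the 187 probes were higher and 0 were called. An unadjusted p under 0.05 was reached by 56 upward and 2 downward, against 5.45% and 8.65% of all probes. Signs differed among the probes of 6 genes there, RPL23, RPL32, RPLP0, RPS12, RPS21 and RPS3A. Ribosomal protein genes have close paralogs and many processed pseudogenes, and it was not tested which probes bind more than 1 transcript.

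**Figure D4:**
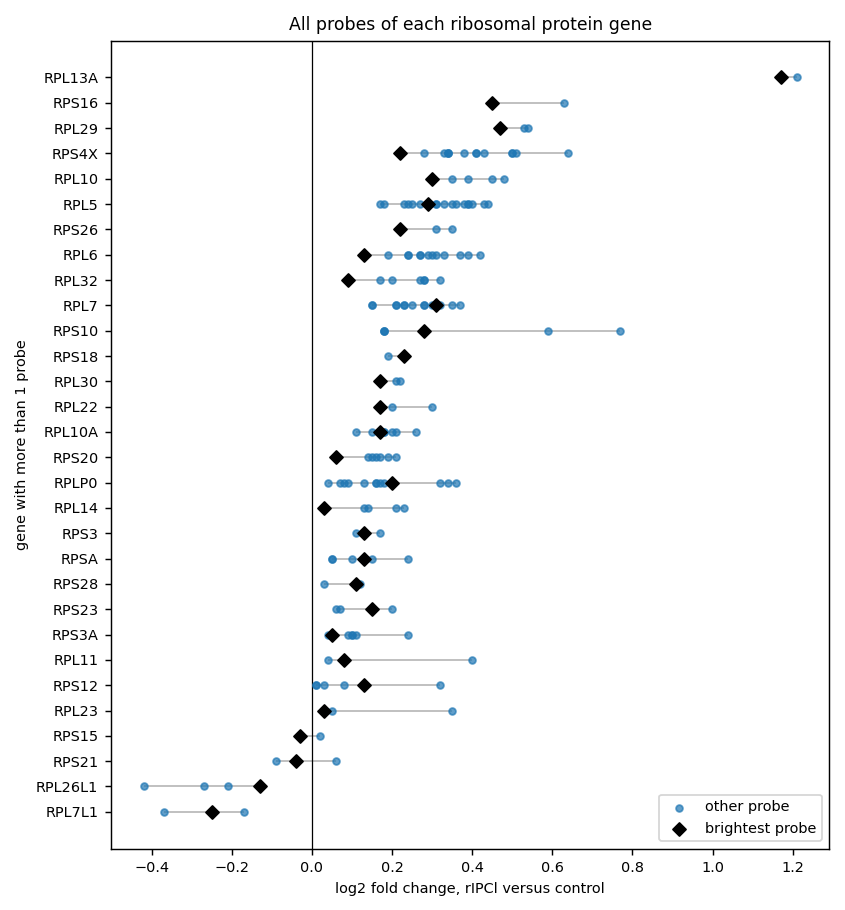
Log2 fold change in rIPCl versus control of every probe for 30 of the 31 ribosomal protein genes with more than 1 probe, with the brightest probe of each gene as a black diamond and the others as blue points. All probes of RPL26L1 and RPL7L1 lie to the left of 0, RPS15 and RPS21 lie on both sides, and those of the other 26 genes lie to the right.

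Other genes of translation were followed from lists. RACK1, a scaffold protein on the small subunit, differed by 0.27 in rIPCl (SE 0.12, limma adjusted p = 0.163) and by 0.12 in rIPCe. FAU was not matched to a probe. Of the elongation factors, EEF1A1, which brings the aminoacyl-tRNA, differed by 0.26 in rIPCl (limma adjusted p = 0.131). EEF1E1, a component of the multi-tRNA synthetase complex, differed by -0.57 (limma adjusted p = 0.149). Of 7 initiation factors, 6 had a lower mean in rIPCl (median -0.11) and all 7 did in rIPCe (median -0.1), and 0 passed the adjusted test.

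Genes of ribosome biogenesis, whose products process pre-rRNA and assemble the subunits, went the other way from most ribosomal proteins. All 9 measured genes of 68 in the list had lower means in rIPCl, with a median of -0.41, and 5 had an unadjusted p under 0.05 (14% of all probes were lower at that threshold). The adjusted limma test called 2 of them (3.58% of all probes were called lower). UTP3, a component of the small subunit processome, fell from 12.35 ± 0.12 (SD, n = 5) to 11.8 ± 0.24 (SD, n = 5), a log2 fold change of -0.55 (SE 0.12, limma adjusted p = 0.0303). IMP3, which pairs the U3 small nucleolar RNA with pre-rRNA, fell from 13.27 ± 0.17 (SD, n = 5) to 12.86 ± 0.05 (SD, n = 5), a log2 fold change of -0.41 (SE 0.11, limma adjusted p = 0.0448). The groups did not overlap for either gene. In rIPCe, 8 of the 9 genes had lower means, with a median of -0.34, and 0 were called. The difference between these genes and the ribosomal proteins was not tested. How the values of these genes depend on slide, scaling or single arrays was not examined.

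Of the list for TOP mRNAs and mTOR, 6 of 32 genes were measured and 1 was called higher (2.69% of all probes were). PDCD4, an inhibitor of the initiation factor EIF4A that is degraded after phosphorylation by S6 kinase, rose from 10.81 ± 0.1 (SD, n = 5) to 11.66 ± 0.27 (SD, n = 5) in rIPCl (log2 fold change 0.85, SE 0.15, limma adjusted p = 0.0207). The other measured genes of this list were not called. MYC differed by 0.79 (SE 0.38, limma adjusted p = 0.207), DDIT4 by 0.52, EIF4EBP2 by 0.01, AKT1 by -0.02 and RRAGD by -0.36. The dependence of the PDCD4 call on slide, scaling and single arrays was not examined. The 3 partners of the nascent chain (SSR1, TPT1 and SEC61A1) had lower means, with a median of -0.04.

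**Figure D5:**
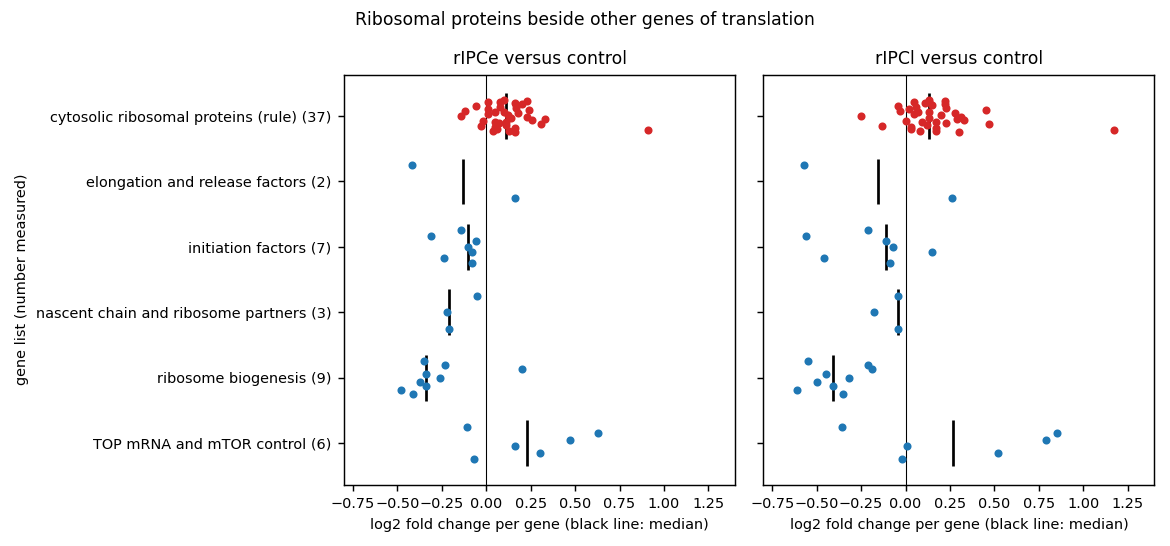
Log2 fold change of each measured gene (points) with the median of its list (black line) in rIPCe versus control and rIPCl versus control, for the 37 ribosomal protein genes in red and 5 other lists of translation genes in blue, with the number measured in parentheses. The medians of the ribosomal proteins are 0.11 and 0.13, and those of ribosome biogenesis are -0.34 and -0.41.

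Markers of several cell types moved between the same groups. The kidney label was checked by 14 proximal tubule genes. Each gave a signal well above background on every array, 12 of them had lower means in rIPCl and 3 were called (SLC7A9 -1.24, FBP1 -0.91 and SLC4A4 -1.13). The other 2 were higher, GATM by 1.05 (limma adjusted p = 0.104) and GGT1 by 0.47. Over all probes, 3.58% were called lower and 2.69% higher. The summed signal of that list ranged between 229000 and 656000 on control arrays, 229000 and 520000 on rIPCe arrays, and 180000 and 469000 on rIPCl arrays. All 7 genes of cycling cells were higher in rIPCl, with a median of 2.3 and 4 called, and their summed signal ranged between 6950 and 27100 on control arrays, 16100 and 55300 on rIPCe arrays, and 27900 and 56300 on rIPCl arrays. Of 9 macrophage genes, 8 were higher, with a median of 1.3 and 4 called, LYZ, C1QA and C1QB among them, and the summed signal was 12700 to 43600, 19400 to 37500 and 26400 to 90300 in the 3 groups. All 10 T and NK cell genes had higher means in rIPCl, with a median of 1.25. At an unadjusted limma p under 0.05 there were 8, against 12.8% of all probes higher, and 0 were called after adjustment. Of these genes CD4, GZMA and CD3D were well above background on 1, 2 and 3 of the 5 control arrays, so part of that median is set against signals near background. Among the tubular injury genes CLU and VCAM1 were called, among the fibroblast genes LUM and among the B cell genes CD79A. The markers of endothelium (median -0.03), neutrophils (0.08) and the distal nephron (0.21) had 0 genes called in rIPCl. The cycling cell and macrophage genes exceeded background clearly on every array. The part of cell composition in the differences of the ribosomal protein genes was not tested.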

How the data were processed

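Total RNA of 15 kidneys was hybridized to single-color Agilent porcine arrays. The deposited scanner files, made with Feature Extraction 11.0.1.1, give an intensity per spot that, per the file headers, was corrected for background within each array and not normalized between arrays. Here the 1417 control spots of 45220 and spots marked as outliers were left out, and intensities were transformed to log2, quantile normalized and averaged per probe. RefSeq accessions gave 6686 of 43603 probes a symbol (3020 genes). A mean per group was fitted to all 15 arrays with limma 3.58.1 (lmFit, eBayes) in R 4.3.3, with Benjamini-Hochberg adjustment over all probes, tested on simulated data. Exact permutation tests were two-sided over 252 assignments. The number of arrays limits the precision.

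Genes were named when past an adjusted p under 0.05 or a fold of 2, among the 5 smallest p or 3 largest differences per comparison, as paralogs, for textbook roles, or with 1 array far off or probes of differing sign. Ribosomal protein genes at an unadjusted p under 0.05 or with groups that did not overlap were also named. Other genes were named when called, at most 3 per list. Some genes of these lists were named though not called, outside this rule. Members and lists were chosen with earlier results of these data known. Alternatives covered normalization, background, input, filters, slide, replicate block, test, probe choice and leaving out each array. They were examined for the ribosomal protein genes and not for the genes of other lists. The array files name no genome build, so no coordinates are given. The results of 3 genes are not reported here by themselves.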

Additional observations from a re-analysis of the deposited data

Results flagged for a closer look

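In each group of 5 arrays, the highest and lowest array of 36 of the 37 ribosomal protein genes was compared with the other arrays by Dixon's test at the 95% level. Of 108 groups tested 11 had an array far from the others, while chance gives about 1 in 20. Of these, 7 were high values on rIPCe 2, at log2 signals of 17.14 for RPL10A (next array 16.84), 18.05 for RPL11 (17.66), 16.1 for RPL27 (15.92), 14.48 for RPL3 (14.22), 17.2 for RPL35 (17.06), 17.87 for RPL6 (17.58) and 18.28 for RPS3 (17.81). RPL30 was high on control 1, at 16.2 (16.05). Low values on control 5 were 14.23 for RPL7L1 (14.6) and 16.82 for RPS21 (16.98). RPL13A on rIPCe 1 was low at 14.53 (15.71). Genes far off on one array share that RNA and hybridization, so they are not independent of each other. No cause was tested.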

How the results depend on the processing

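The number of genes called in rIPCl versus control was 2 in the reported fit. It was 4 after subtraction of the 75th percentile (RPL10, RPL13A, RPL29 and RPL5), 1 without normalization between arrays (RPL13A), 4 with the median of all probes of a gene, and 0 with slide as a fixed or random block. With normexp (offset 50) on the median signal it was 5. That setting was chosen after seeing the data, because the files hold the median and not the mean signal of a spot, and the planned correction on the mean signal was not run. The count was 0 to 4 when single arrays were left out (4 without control 1, 0 without control 2, control 3 or rIPCl 3, 4 or 5). In rIPCe versus control it was 0 to 1 (RPL13A without rIPCe 1), and in rIPCl versus rIPCe it was 0 throughout. The replicate numbers did not pair the arrays, since same-numbered arrays had correlations of -0.26 to 0.07 in their deviations from the group means and 0 of 5 correlated best with their own number in each comparison. With the replicate block the count in rIPCl versus control was 0, and RPL13A and RPS16 had limma adjusted p values of 0.0503 and 0.0796.

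The median over the genes in rIPCl versus control was 0.28 with slide as a block and 0.1 to 0.17 without single arrays. In rIPCe it was 0.06 to 0.15 without single arrays. In rIPCl versus rIPCe it reversed to -0.06 without normalization and was -0.01 to 0.08 without single arrays. With slide as a block, single genes turned: RPL7L1 to 0.46 in rIPCl and 0.28 in rIPCe versus control and to 0.18 in rIPCl versus rIPCe, RPL26L1 to 0.24 and 0.15 (rIPCl versus control and versus rIPCe), RPS21 to 0.19 in rIPCl and 0.1 in rIPCe, RPS15 to 0.2 in rIPCe, and RPL29 and RPL13A in rIPCl versus rIPCe to -0.09 and -0.26. RPS21 also turned to 0.03 in rIPCl with the 75th percentile and to 0.06 in rIPCl and 0.04 in rIPCe with the median of all probes. In rIPCl versus rIPCe, RPS28 turned to 0 with normexp and was -0.11 to 0.03 without single arrays (0.03 without rIPCe 2), and RPL13A was -0.02 to 0.38 (-0.02 without rIPCe 1). The causes were not tested.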
